A study of Homo sapiens with 8 samples.

Results

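The tubulin genes described here are 10 human genes that encode α-tubulin (TUBA1A, TUBA1B, TUBA1C, TUBA4A), β-tubulin (TUBB, TUBB2A, TUBB3, TUBB4B, TUBB6) and γ-tubulin (TUBG1), chosen by name from the tubulin family. They are 10 of the 78932 genes in the count tables, and 9 of them were among the 12618 genes with enough counts to be tested. TUBB had 5 counts over the 8 libraries and was not tested. The cells were HCT116, a human colorectal cancer line, in which NUDT21, a subunit of the 3′-end processing factor CFIm, carries a dTAG degradation tag. All 8 libraries came from these cells after exposure to JTE-607, an inhibitor of the pre-mRNA 3′-end nuclease CPSF73. In 4 of them DMSO, the solvent, was added, and in the other 4 dTAGV1, a small molecule that directs the tagged protein to degradation. The comparison is therefore of dTAGV1 against DMSO in the presence of JTE-607, by sequencing of transcript 3′ ends. Dose, time and the number of clones are not given in the sources used here.

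α- and β-tubulin form the heterodimers that polymerise into microtubules, and γ-tubulin sits in ring complexes that start new microtubules at centrosomes and spindles. Nascent α- and β-tubulin chains are folded by the CCT chaperonin and by tubulin cofactors before they pair. When free dimers are abundant, cells degrade the messenger RNAs that are translating tubulin, a feedback called tubulin autoregulation: the factor TTC5 reads the first residues of the nascent chain, and SCAPER and the CCR4-NOT deadenylase act after it.

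The first 30 coding bases of each gene are shown because the autoregulation factor reads the residues they encode. They were taken from GENCODE 29 transcripts on GRCh38. Capitals mark the first 12 bases, which in α-tubulin encode methionine, arginine, glutamate and cysteine, and in β-tubulin end on isoleucine.
TUBA1A: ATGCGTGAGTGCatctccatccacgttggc
TUBA1B: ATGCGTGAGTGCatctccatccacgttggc
TUBA1C: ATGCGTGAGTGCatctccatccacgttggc
TUBA4A: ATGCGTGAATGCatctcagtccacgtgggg
TUBB: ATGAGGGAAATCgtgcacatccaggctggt
TUBB2A: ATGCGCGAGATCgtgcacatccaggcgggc
TUBB3: ATGAGGGAGATCgtgcacatccaggccggc
TUBB4B: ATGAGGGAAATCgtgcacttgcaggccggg
TUBB6: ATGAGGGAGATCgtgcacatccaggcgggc
TUBG1: ATGCCGAGGGAAatcatcaccctacagttg
TUBA1A, TUBA1B and TUBA1C, 3 genes, have the same 30 bases. The β-tubulin genes encode the same methionine, arginine and glutamate, partly with other codons. TUBG1 has other codons and is the 1 gene of the 10 that does not begin in this way. Among 10619 tested protein-coding genes with an annotated coding start, 9 (0.0848%) began with the codons of either peptide. They were 8 of the genes described here and TUBB4A, another β-tubulin gene. All 9 were lower with dTAGV1, against 28.5% of all genes tested. For 8 of them this is the same fall as reported below, so the count adds only TUBB4A. TUBG1, without this start, was lower as well (log2 fold change -0.94). The match of start codons was looked at after the values were seen.

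All 9 tested tubulin genes were lower in the dTAGV1 libraries than in the DMSO libraries, by 0.75 (TUBB6) to 1.39 (TUBA4A) on the log2 scale, and none was higher. Their median log2 fold change was -1.04, against 0.01 over all 12618 genes tested. Of all genes tested, 57.9% were called at a threshold of 0.05 on the p-value of edgeR's quasi-likelihood test after Benjamini-Hochberg adjustment, 28.5% as lower and 29.4% as higher. A called fall of at least 1 on the log2 scale was found for 6 of the tubulin genes (TUBA1A, TUBA1B, TUBA1C, TUBA4A, TUBB2A and TUBB4B) and for 9.23% of all genes. The 4 DMSO and 4 dTAGV1 libraries did not overlap in CPM (counts in each 1000000 of a library, after TMM scaling) for any of the 9, while 50.9% of all genes had no overlap. In bulk RNA, fewer cells in a state that transcribes tubulin genes and less tubulin RNA in each cell cannot be told apart.

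**Figure D1:**
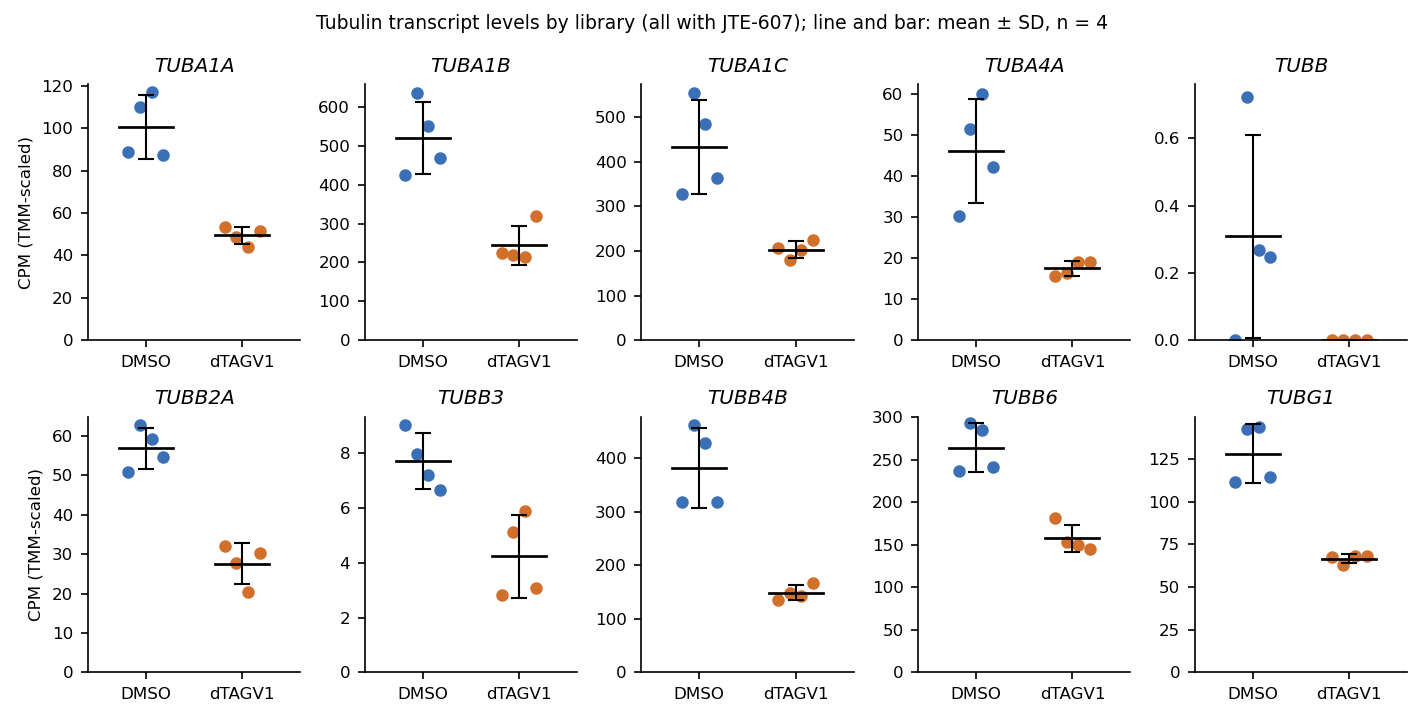
Level of each of the 10 tubulin genes in CPM in each library, with DMSO and dTAGV1 side by side (all with JTE-607). Points are libraries and the lines with bars are the mean ± SD of 4; each panel has its own axis from 0. In 9 panels all DMSO points lie above all dTAGV1 points, and TUBB lies at or near 0.

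Summed over the 4 α-tubulin genes, the level fell from 1098 ± 222 CPM with DMSO to 515 ± 67.8 CPM with dTAGV1 (SD, n = 4), so that 46.8% remained. Summed over the 5 β-tubulin genes, it fell from 710 ± 108 to 338 ± 14.5 CPM, so that 47.6% remained. TUBB had 5 counts in all, so the β-tubulin sums, ratios and shares in effect leave it out. The ratio of α- to β-tubulin counts was 1.42, 1.64, 1.56 and 1.55 in the DMSO libraries and 1.42, 1.39, 1.50 and 1.77 in the dTAGV1 libraries, so that the groups overlapped. Each transcript gives reads near its 3′ end in this assay, and CPM were therefore compared between genes without division by length. With DMSO the levels ran from TUBA1B through TUBA1C to TUBB4B, then TUBB6, TUBG1, TUBA1A, TUBB2A, TUBA4A and TUBB3. TUBB, whose counts are not taken as a measure of its expression, is not placed in this order. The place of TUBB3 is uncertain, since its counts may miss reads shared with an overlapping gene. TUBA1B and TUBA1C, TUBA1C and TUBB4B, TUBG1 and TUBA1A, and TUBB2A and TUBA4A were neighbours whose DMSO ranges overlapped. With dTAGV1 the order was the same, except that TUBB6 stood above TUBB4B. There the ranges of TUBA1B and TUBA1C, of TUBA1C and TUBB6, and of TUBB6 and TUBB4B overlapped.

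Among the α-tubulin genes, TUBA1B (chromosome 12, 49127782 to 49131397, minus strand), a widely expressed α-tubulin gene, had the highest level. Its values were 424, 636, 551 and 469 CPM with DMSO and 224, 220, 215 and 320 CPM with dTAGV1. The highest dTAGV1 library, replicate 4, stood apart from its group and still lay below every DMSO library. TUBA1B fell by 1.08 on the log2 scale (SE 0.17, adjusted p = 0.000402 in the edgeR quasi-likelihood test), from 520 ± 93.5 to 245 ± 50.1 CPM (SD, n = 4).

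TUBA1C (chromosome 12, 49188736 to 49274603, plus strand), a second widely expressed α-tubulin gene, measured 328, 554, 483 and 362 CPM with DMSO and 206, 180, 201 and 224 CPM with dTAGV1. The spread was wide within DMSO, where replicates 2 and 3 were high, and narrow within dTAGV1. The fall was 1.09 (SE 0.16, edgeR adjusted p = 0.000360). TUBA1A (chromosome 12, 49184796 to 49189324, minus strand), an α-tubulin gene best known from developing neurons, measured 88.8, 110, 117 and 87.3 CPM with DMSO and 53.6, 48.9, 44.2 and 51.6 CPM with dTAGV1. It fell by 1.02 (SE 0.11, edgeR adjusted p = 9.24e-09), with no overlap of the groups.

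TUBA4A (chromosome 2, 219249711 to 219278170, minus strand), the lowest of the 4 α-tubulin genes, had the largest fall of the 9. It measured 30.3, 51.4, 60.0 and 42.3 CPM with DMSO and 15.6, 16.3, 19.1 and 18.9 CPM with dTAGV1. Every dTAGV1 library lay below the lowest DMSO library, and the fall was 1.39 (SE 0.17, edgeR adjusted p = 7.84e-07). Reads on the opposite strand of TUBA4A, where STK16 and TUBA4B are annotated, went the other way: 2, 2, 1 and 1 counts with DMSO and 10, 5, 17 and 12 with dTAGV1. These reads were not part of the TUBA4A counts, and STK16 itself fell by 0.41 (edgeR adjusted p = 0.0182). TUBA4B had 0 counts in every library.

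Among the β-tubulin genes, TUBB4B (chromosome 9, 137241213 to 137243707, plus strand), a widely expressed β-tubulin also found in cilia, had the highest level with DMSO. It measured 317, 461, 428 and 318 CPM with DMSO and 135, 149, 143 and 168 CPM with dTAGV1. The groups were far apart, and the fall was 1.36 (SE 0.12, edgeR adjusted p = 3.44e-07). TUBB6 (chromosome 18, 12307669 to 12344320, plus strand), a β-tubulin whose excess is known to disturb microtubule arrays, measured 237, 293, 284 and 241.3 CPM with DMSO and 181, 153, 150 and 145 CPM with dTAGV1. Its fall of 0.75 (SE 0.09, 95% interval -0.91 to -0.58, edgeR adjusted p = 5.12e-08) was the smallest of the 9, with no overlap between the intervals of TUBB6 and TUBB4B (-1.60 to -1.12); the difference between the genes was not tested. AFG3L2, annotated on the opposite strand over part of TUBB6, had a log2 fold change of 0.00 (edgeR adjusted p = 0.974).

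TUBB2A (chromosome 6, 3153669 to 3157526, minus strand), a β-tubulin gene prominent in neurons, measured 50.8, 62.7, 59.2 and 54.6 CPM with DMSO and 32.0, 27.8, 20.3 and 30.3 CPM with dTAGV1. It fell by 1.04 (SE 0.12, edgeR adjusted p = 1.19e-07), with a gap between the groups. TUBB3 (chromosome 16, 89921392 to 89938761, plus strand), the β-tubulin widely used as a neuronal marker, rested on few counts: 33, 33, 27 and 27 with DMSO and 10, 17, 20 and 13 with dTAGV1. The groups still did not overlap, and the fall was 0.88 with a wide 95% interval (-1.40 to -0.36, edgeR adjusted p = 0.00630). Of 8 neuron marker genes, DCX, NEFL, NEFM and GAP43 were at 0 in every library, and the sum of all 8 was 110 to 133 CPM with DMSO and 22.4 to 34.5 CPM with dTAGV1. Nearly all of that sum was SYT1, a synaptic vesicle protein, which fell by 2.09 (edgeR adjusted p = 2.62e-13); the part of such transcripts in the TUBB3 result was not tested.

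TUBG1 (chromosome 17, 42609676 to 42615234, plus strand), the main γ-tubulin gene of dividing cells, measured 112, 143, 144 and 114 CPM with DMSO and 67.5, 62.8, 68.0 and 68.3 CPM with dTAGV1. The dTAGV1 libraries lay within a few CPM of each other, below all DMSO libraries. TUBG1 fell by 0.94 (SE 0.09, edgeR adjusted p = 5.86e-09).

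**Figure D2:**
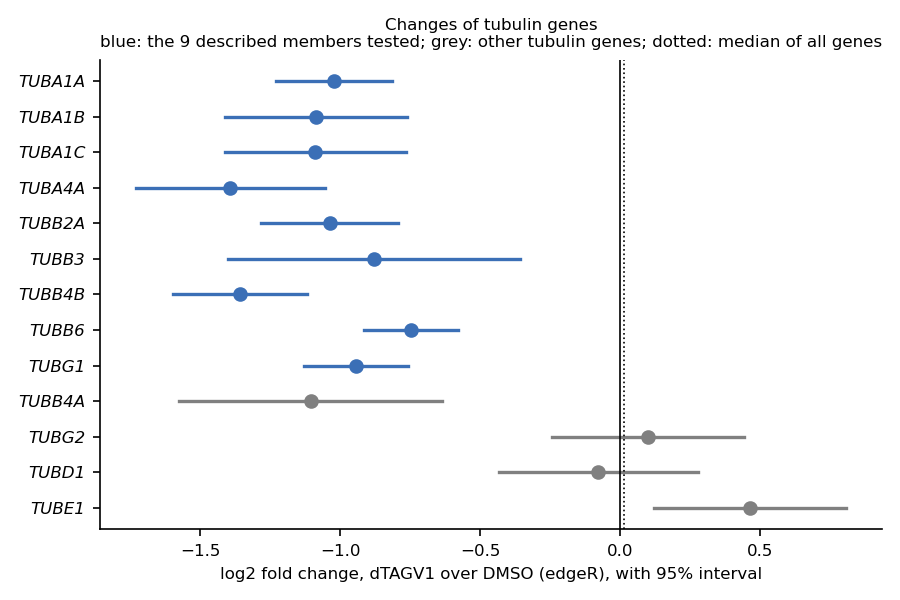
Log2 fold change (dTAGV1 over DMSO, edgeR) of the 9 tested tubulin genes in blue and of 4 other tubulin genes in grey; horizontal lines are 95% intervals and the dotted line is the median of all genes tested. The 9 intervals lie below 0, from TUBA4A at -1.39 to TUBB6 at -0.75, while those of TUBG2 and TUBD1 include 0.

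Across the DMSO libraries, replicates 2 and 3 had higher CPM than replicates 1 and 4 for 8 of the 9 tested tubulin genes, an order that 18.8% of all genes tested shared. This order was noticed after the values were seen. The labels do not say that the replicates were separate cultures, so the p-values measure only the spread between these libraries.

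The make-up of the α-tubulin pool overlapped between groups for each gene: TUBA1B gave 47.5 ± 1.56% of its counts with DMSO and 47.2 ± 3.39% with dTAGV1, and TUBA1C gave 39.0 ± 1.66% and 39.6 ± 2.51% (SD, n = 4). The β-tubulin pool differed. TUBB4B gave 51.6, 55.9, 54.9 and 51.2% of β-tubulin counts with DMSO and 38.6, 44.4, 44.7 and 48.4% with dTAGV1. TUBB6 gave 38.6, 35.5, 36.5 and 38.9% with DMSO and 51.5, 45.8, 47.0 and 42.0% with dTAGV1. Neither gene's shares overlapped between groups, and the mean shift was -9.38 percentage points for TUBB4B and 9.20 for TUBB6. TUBB2A and TUBB3 held the rest, apart from the 5 counts of TUBB. These shares are a description without a test.

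**Figure D3:**
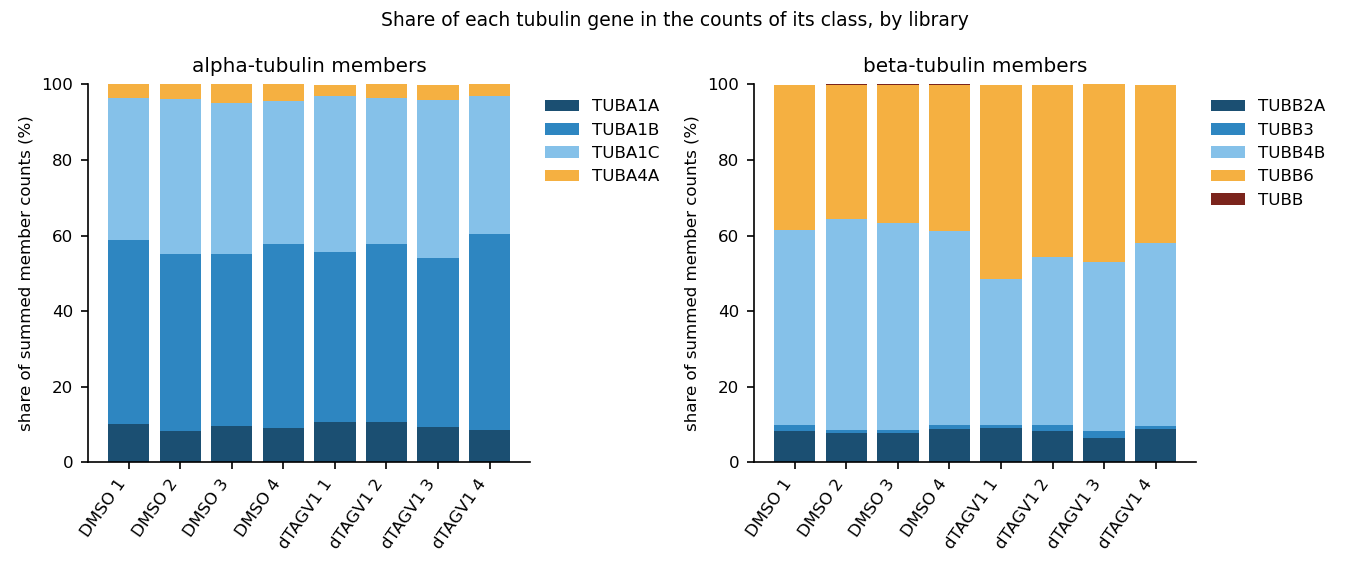
Stacked bars of the share of each gene in the summed counts of the α-tubulin genes (left) and β-tubulin genes (right), in percent, 1 bar for each of the 8 libraries. The α-tubulin bars look alike across libraries, whereas TUBB6 takes 42.0 to 51.5% of the β-tubulin counts with dTAGV1 and 35.5 to 38.9% with DMSO.

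TUBB (chromosome 6, 30720201 to 30725426, plus strand), the major β-tubulin gene of many proliferating cells, had 0, 3, 1 and 1 counts in the DMSO libraries and 0 in each dTAGV1 library. A count of 0 allows up to 3 counts, which is 0.710 to 0.906 CPM in the dTAGV1 libraries, so no fold change is given. Genes near it were as sparse: of 31 other protein-coding genes within 500 kb of TUBB, 28 (90.3%) had under 100 counts summed over the 8 libraries. Of all protein-coding genes in the annotation, 47.8% had under 100. The 3 exceptions were ABCF1 with 4310 counts, PPP1R10 with 5935 and DHX16 with 132, whereas FLOT1 had 11, GNL1 had 7 and MDC1 had 33. These genes lie in the region of the major histocompatibility complex. What sets the counts there was not tested, and the TUBB counts are not taken as a measure of TUBB expression. The neighbourhood was examined after the TUBB counts were seen.

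**Figure D4:**
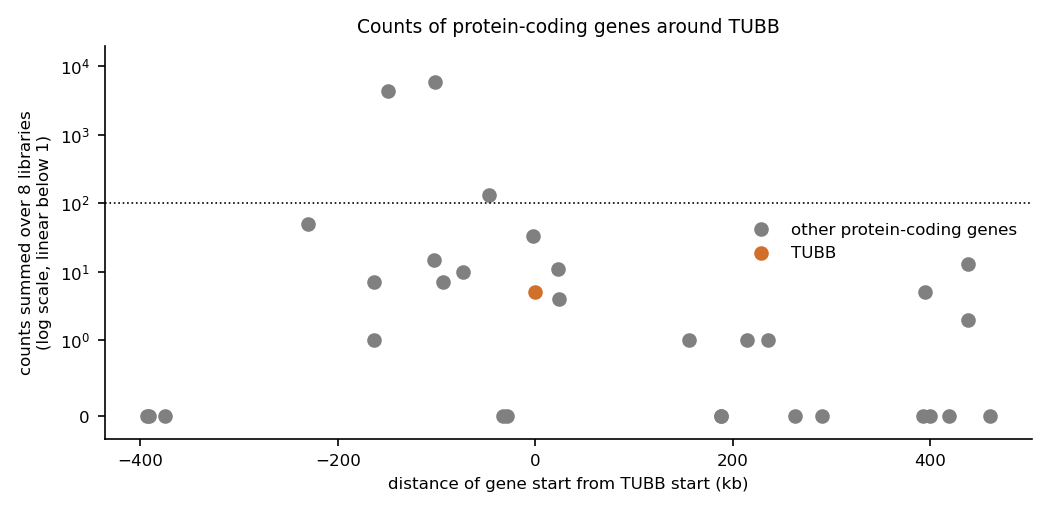
Counts summed over the 8 libraries (log scale, linear below 1) of protein-coding genes within 500 kb of TUBB, against the distance of their start from the TUBB start in kb. The dotted line is at 100 counts, and 28 of the 31 other genes lie below it, as does TUBB with 5.

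Near-identical copies also bear on which reads could be counted. Of the 50-base words in the last 300 bases of each transcript, 21.1% of those of TUBB2A occur in other, non-overlapping genes (TUBB2B among them), and so do 14.7% of TUBA1A, 13.9% of TUBA1B and 7.17% of TUBB4B. None occurs elsewhere for the other 6 genes, apart from genes that overlap them. TUBA1A and TUBA1B share words with each other, so their counts may miss reads that fit both. TUBB3 shares 98.0% of its words with AC092143.1, a gene annotated over it on the same strand, which had 0 counts in all 8 libraries. Reads that lie in both genes may be counted for neither, so this 0 does not show that TUBB3 lost no reads. The level of TUBB3 and its share of the β-tubulin counts may therefore be too low.

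Because CFIm binds UGUA in RNA upstream of poly(A) sites, the transcript ends were read for this element and for the poly(A) signal. In the last 100 bases of the 10 annotated transcripts, TGTA (UGUA in RNA) occurs in 4, namely TUBA1B, TUBB2A, TUBB4B and TUBB6. At least 1 occurs in 55.6% of 10637 tested protein-coding genes. The signal AATAAA stands within the last 50 bases of 6 of the 10 (63.7% of all), and ATTAAA without AATAAA in 2 (14.9% of all). The windows below are from GENCODE 29, chosen to show both forms, with the poly(A) signal in capitals.
TUBA1A: tgatgggttttgAATAAAgtattccctgtc
TUBA1C: ctgtcagtctttAATAAAgtattagtcaca
TUBA4A: tggggctgtgccATTAAAagtcaggtcatc
TUBB4B: acagacaccaccATTAAAgcattttcatag
TUBG1: ctatttatctttAATAAAgcactggatata
TUBA4A and TUBB4B, the genes with ATTAAA, had the 2 largest falls of the 9. That was noticed after the values were seen, in 2 genes, and only on the strand of the transcript; use of single poly(A) sites was not analysed here. TUBB6, with the smallest fall, has neither signal in its last 50 bases and 1 TGTA. TUBA1B (log2 fold change -1.08) also has neither signal there, and has 2 TGTA. Only 1 annotated transcript of each gene was read, and whether its end is the end that was sequenced was not tested. The TUBB6 transcript used here ends at 12326619, whereas the gene runs to 12344320.

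The promoters were read because these genes fell together. In the 300 bases from 250 before to 50 after the annotated start (RefSeq, GRCh38.p14), CCAAT, the element bound by NF-Y, occurs on either strand in 7 of the 10 genes and in 34.6% of 35116 promoters of this length. TTTGAA, part of the cell-cycle element known as CHR, occurs in 2 of 10 (15.2% of all), and TATAA in 5 of 10 (20.4% of all). The promoters of TUBB4B and TUBA1C hold all 3, with 3 copies of CCAAT in TUBB4B, and 3.26% of promoters hold at least 3. They are printed below with TUBA1B, which holds none of them, and capitals mark the motifs on either strand.
TUBB4B (chr9:137241037-137241336, plus strand): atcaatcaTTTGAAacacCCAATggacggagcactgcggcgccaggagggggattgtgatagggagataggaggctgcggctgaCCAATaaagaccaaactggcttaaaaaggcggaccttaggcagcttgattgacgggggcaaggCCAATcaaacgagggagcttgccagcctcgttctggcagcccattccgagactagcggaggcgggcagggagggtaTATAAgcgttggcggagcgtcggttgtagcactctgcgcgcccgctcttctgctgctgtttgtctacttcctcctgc
TUBA1C (chr12:49264832-49265131, plus strand): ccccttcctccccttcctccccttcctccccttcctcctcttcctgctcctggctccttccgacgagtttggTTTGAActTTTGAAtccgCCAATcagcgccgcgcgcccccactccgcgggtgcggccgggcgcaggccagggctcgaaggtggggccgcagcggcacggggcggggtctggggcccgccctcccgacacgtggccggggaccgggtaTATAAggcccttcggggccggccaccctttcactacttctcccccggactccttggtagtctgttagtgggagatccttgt
TUBA1B (chr12:49131346-49131645, minus strand): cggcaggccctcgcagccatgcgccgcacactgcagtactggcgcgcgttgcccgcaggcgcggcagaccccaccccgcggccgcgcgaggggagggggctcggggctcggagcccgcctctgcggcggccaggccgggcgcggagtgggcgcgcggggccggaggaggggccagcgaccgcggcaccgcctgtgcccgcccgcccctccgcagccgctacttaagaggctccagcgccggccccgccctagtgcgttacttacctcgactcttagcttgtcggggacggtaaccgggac
The motifs were searched after the values were seen, and a match is a description of the letters, not a site in use.

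Other tubulin genes did not move as 1 group. Of 14 further tubulin genes, 4 were tested, of which 1 rose, 1 fell and 2 did not pass the test. Over all genes tested, 29.4% rose and 28.5% fell. TUBB4A, a β-tubulin gene with the same start codons, had 34, 53, 38 and 29 counts with DMSO and 17, 14, 17 and 18 with dTAGV1, and fell by 1.10 (edgeR adjusted p = 0.000327). TUBE1, which encodes ε-tubulin of centrioles, rose by 0.47 (edgeR adjusted p = 0.0256), from 12.9 ± 3.25 to 17.8 ± 0.615 CPM (SD, n = 4). TUBG2, the second γ-tubulin gene, stood at 16.3 ± 3.12 and 17.5 ± 3.37 CPM (log2 fold change 0.10, 95% interval -0.24 to 0.44, edgeR adjusted p = 0.646), and the interval lies wholly above that of TUBG1 (-1.13 to -0.76), although the difference between the genes was not tested. TUBD1, for δ-tubulin, had a log2 fold change of -0.08 (95% interval -0.43 to 0.28, edgeR adjusted p = 0.736).

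Of the genes that fold tubulin, 22 of 24 were tested, and 9 fell, 2 rose and 11 did not pass the test. The median log2 fold change was -0.04. Over all genes tested, 28.5% fell and 29.4% rose. Of the 8 subunit genes of the CCT chaperonin, 7 fell by 0.25 to 0.46, and CCT6A had the largest fall of them, from 431 ± 11.0 to 314 ± 15.6 CPM. TBCD, a cofactor that holds β-tubulin during dimer assembly, fell by 1.23 (SE 0.18, edgeR adjusted p = 3.46e-06), from 19.5 ± 1.86 to 8.26 ± 2.09 CPM. PDCL, a phosducin-like partner of CCT, rose by 0.68 and TBCA, a β-tubulin cofactor, rose by 0.24 (edgeR adjusted p = 1.75e-06 and 0.00240).

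Of the autoregulation genes, 12 of 13 were tested, with 6 higher, 4 lower and 2 not passing, and a median of 0.30. The shares of all genes tested were 29.4% higher and 28.5% lower. TTC5 itself stood at 0.319 CPM with DMSO and 0.425 CPM with dTAGV1 and was not tested. It had 0, 0, 2 and 3 counts with DMSO and 1, 0, 4 and 1 with dTAGV1. Counts this low are not taken as a measure of TTC5 expression. SCAPER, the adaptor between TTC5 and the deadenylase, rose by 0.48 (SE 0.10, edgeR adjusted p = 0.000136), from 71.6 ± 8.19 to 100.2 ± 10.4 CPM. Of the CCR4-NOT genes, CNOT4 rose by 0.92 and CNOT8 by 0.83 (edgeR adjusted p = 7.93e-08 and 1.61e-06). CNOT9 fell by 0.42 and CNOT6 by 0.24 (edgeR adjusted p = 0.000503 and 0.0222).

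Of the γ-tubulin ring complex and its recruiters, 19 of 22 were tested, with 11 lower, 2 higher and 6 not passing, and a median of -0.39. The shares of all genes tested were 28.5% lower and 29.4% higher. HAUS5, an augmin subunit that brings γ-tubulin to spindle microtubules, fell by 1.52 (edgeR adjusted p = 1.77e-05), from 21.3 ± 4.40 to 7.32 ± 3.36 CPM. PCNT, the centrosomal scaffold pericentrin, fell by 1.06 (edgeR adjusted p = 5.10e-10). The ring subunit TUBGCP6 rose by 0.84 and AKAP9, a Golgi and centrosome scaffold, rose by 0.81 (edgeR adjusted p = 0.000386 and 7.88e-10).

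Of the enzymes that modify tubulin, 21 of 24 were tested, with 8 higher, 6 lower and 7 not passing, and a median of -0.22. For this list and the next, the shares of all genes tested were 29.4% higher and 28.5% lower. SVBP, the partner of the vasohibin detyrosinases, rose by 1.00, and TTLL7, a glutamylase, rose by 0.56 (edgeR adjusted p = 1.94e-07 and 1.18e-06). TTLL12 fell by 1.21 and HDAC6, an α-tubulin deacetylase, fell by 1.20 (edgeR adjusted p = 1.92e-07 and 1.59e-06). Of the genes for microtubule dynamics, 30 of 34 were tested, with 12 lower, 6 higher and 12 not passing, and a median of -0.14. MAP2, a microtubule-binding protein best known from dendrites, fell by 2.41 (edgeR adjusted p = 1.79e-09), from 21.3 ± 4.55 to 3.94 ± 1.10 CPM. MAP1B, a neuronal microtubule-associated protein, and CLIP1, a plus-end protein, rose by 0.65 and 0.57 (edgeR adjusted p = 0.00251 and 5.86e-07).

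**Figure D5:**
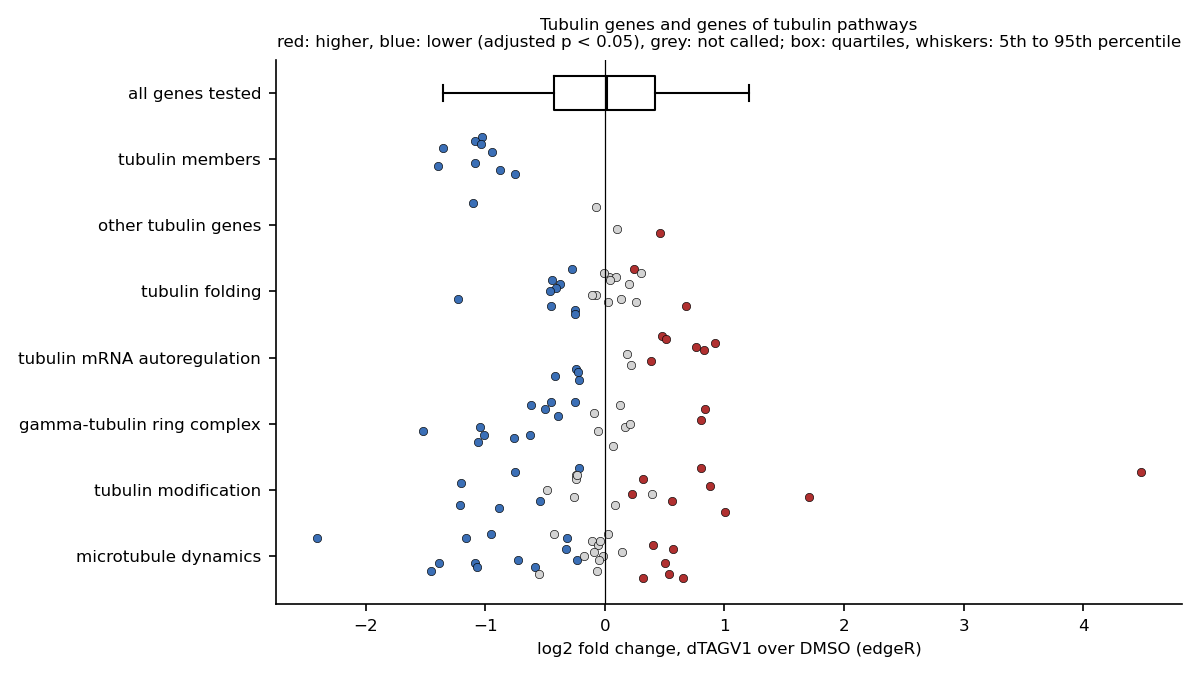
Log2 fold changes (dTAGV1 over DMSO, edgeR) of the tested genes of each list, 1 point a gene, red for higher, blue for lower and grey for not called, below a box of the quartiles of all genes tested (whiskers, 5th to 95th percentile). The tubulin genes described here all lie to the left of 0 with a median of -1.04, while the pathway lists lie on both sides, with medians of -0.39 to 0.30.

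The 3 genes whose log2 CPM over the 8 libraries was most like that of the summed tubulin genes were HJURP, a centromere histone chaperone (r = 0.998), RRM1, a subunit of ribonucleotide reductase (r = 0.997), and CCNB1, the mitotic cyclin B1 (r = 0.996). The libraries fall into their 2 groups, so such a coefficient reads mainly the group difference, and 12.5% of the 9035 genes compared reached over 0.9. Within DMSO, these 3 genes also had replicates 2 and 3 above replicates 1 and 4, the order described above for the tubulin genes. They were picked by likeness over all 8 libraries, so the shared order is not a separate result. HJURP fell by 1.93, RRM1 fell by 0.91 and CCNB1 fell by 1.61 (edgeR adjusted p = 6.83e-07, 4.56e-08 and 0.000481).

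The libraries held 3447842 to 4291256 counted reads each, and libraries of the same group correlated at 0.975 to 0.984 and those of different groups at 0.896 to 0.911. NUDT21 RNA fell by 1.95 (edgeR adjusted p = 1.36e-09), but dTAGV1 acts on the tagged protein, so this does not check the labels. Of reads placed at a single locus, 30.1 to 33.7% with DMSO and 35.9 to 37.4% with dTAGV1 matched no gene on the counted strand. Mitochondrial genes took 7.98 to 8.56% of counts with DMSO and 9.22 to 10.4% with dTAGV1. The part of these differences in the tubulin results was not tested. Epithelial markers were present, with 7 of 8 tested and a sum of 1720 to 2017 CPM with DMSO and 1384 to 1482 CPM with dTAGV1. Leukocyte markers summed to 2.55 CPM or less in every library, and fibroblast and endothelial markers to 22.4 CPM or less.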

How the data were processed

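RNA 3′ ends were sequenced in 8 libraries, 4 in each group, made with the Lexogen QuantSeq FWD V2 kit, per the labels' protocols. The deposited tables hold whole-number counts for each gene, laid out as STAR writes them. The submitters' processing notes name FastQC, fastp, STAR, HTSeq and DESeq2 and the build GRCh38, and the annotation is not given in the sources used here. Counts on the strand of the gene were used, and the 4 totals of reads given to no gene (56.7% to 62.8% of the reads of a library) stayed out of library sizes and tests.

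Tests used edgeR 4.0.16 in R 4.3.3 with filterByExpr, TMM scaling and the robust quasi-likelihood F test, fitted to 12618 genes at once, with Benjamini-Hochberg adjustment and a threshold of 0.05. A log2 fold change above 0 means more RNA with dTAGV1. CPM are counts in each 1000000 after TMM scaling. Intervals of fold changes are approximate 95% intervals, from the fold change and its SE under a normal distribution. The SE was taken from the fold change and the F statistic. Such intervals can be narrower than ones that use the degrees of freedom of the test. Of the 78932 identifiers, 61481 were matched to a gene name. Coordinates, counted from 1, and transcripts came from GENCODE 29, which is not stated to be the authors' annotation, and promoters from RefSeq on GRCh38.p14. Overlaps and shared words are those of GENCODE 29 and may not be those of the annotation used for counting. GENCODE 29 has no gene over TUBB2A, which kept 0.465% of its reads in the count of both strands. The test was also run on simulated counts in which 200 genes were changed. In the data 57.9% of genes were called, so the simulation does not check scaling or error rates at that extent of change.

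The tubulin genes, the pathway and marker lists and the tests were chosen with earlier results of these data known. Named genes are the 10 tubulin genes and, in each list, the 2 largest increases and 2 largest decreases among called genes that averaged 10 CPM or more. TTC5, SCAPER and the 3 genes most correlated with the summed tubulin genes were also named. A gene that this rule gives is not reported here. Other genes were named after their values were seen. Alternatives were DESeq2 1.42.0, limma-voom (limma 3.58.1), RLE or library-size scaling, other filters, the count of both strands together, a replicate block, and leaving out each library. The plots were made in Python 3.11.15 with matplotlib 3.10.9.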

Additional observations from a re-analysis of the deposited data

Results flagged for a closer look

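In the dTAGV1 libraries, replicate 4 had 319.5 CPM of TUBA1B, far from the other 3 libraries at 215.0 to 223.6 CPM. For TUBG1, dTAGV1 replicate 2 had 62.8 CPM, below the other 3 at 67.5 to 68.3 CPM. For CNOT8, DMSO replicate 3 had 23.2 CPM, below the other 3 at 33.5 to 35.5 CPM. Groups of 4 were checked in 62 cases, and chance alone sets a library apart in about 1 of 20. Reads on the opposite strand of TUBA4A, which no comparison used, stood at a mean of 3.05 ± 1.45 CPM with dTAGV1 and 0.386 ± 0.151 CPM with DMSO (SD, n = 4), without overlap.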

How the results depend on the processing

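Of 141 values of single tubulin genes under the alternatives, 140 kept their direction and their side of the threshold, and none reversed. The exception was TUBA1B with counts irrespective of strand, where the log2 fold change was -0.36 (SE 0.29, edgeR adjusted p = 0.314). That count leaves 135 reads of 11749, or 1.15%, since a gene annotated on the opposite strand covers all of TUBA1B. With it 7 of the 10 genes were tested and 6 were lower. Of these 6, TUBB4B kept 7.04% and TUBA4A 20.5% of its reads, while TUBA1A, TUBB3, TUBB6 and TUBG1 kept nearly all. TUBA1C, TUBB2A and TUBB were not tested there, and TUBA1C kept 0.391% and TUBB2A 0.465% of its reads.

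The number of tubulin genes lower was 9 with DESeq2, limma-voom, RLE or library-size scaling, without the low-count filter (10 tested) and with each library left out in turn (9 to 9), and 8 of 8 tested with a mean of at least 100 counts, where TUBB3 was not tested. Library-size scaling moved the median of all genes from 0.01 to -0.06. On the strand of the gene, the log2 fold changes ranged from -1.26 to -0.98 for TUBA1B and from -1.09 to -0.74 for TUBB3, which had the largest adjusted p, 0.0256. Counts limit TUBB, which could not be tested with the default filter, and TUBB3.

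The labels number the replicates 1 to 4 in both groups. Libraries with the same number deviated from their group means with correlations of 0.124, -0.0109, 0.0201 and 0.0305, so the numbers were not taken to pair them. With the replicate number as a block, all 9 genes were again lower (TUBA1B -1.09 with edgeR adjusted p = 0.00296, TUBA1C -1.06, TUBB3 -0.88, TUBB4B -1.34), and 7434 genes were called in place of 7302.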
